A study of Mus musculus with 11 samples.

Results

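The 9 genes described here encode the MHC class I presentation route in mouse cerebral cortex after a focal stroke: the heavy chains H2-K1, H2-D1 and H2-Q7, their light chain B2m, the peptide transporter subunits Tap1 and Tap2, the immunoproteasome subunits Psmb8 and Psmb9, and the transactivator Nlrc5. They were taken by symbol from a table of 22377 genes, and each of the 9 symbols had 1 row. The genes were chosen with earlier results of these data known. Counts of them beside shares of all genes are therefore descriptions and not tests. The levels are tags of cap-trapped RNA 5′ ends scaled to the total of the library (CPM), so they do not depend on transcript length. Stroke was made by photothrombosis, in which LED light on the left parietal cortex activates injected rose bengal (35 mg/kg) and clots the vessels under it, in male C57BL/6N mice. The tissue was whole cortex of the infarcted (left) or the non-infarcted side. The 11 libraries comprise 1 from naive cortex, which had neither stroke nor drug, and 1 from each side in 5 states. These states were 7 days after photothrombosis untreated, 7 days with levetiracetam (an anti-seizure drug), 1 month untreated, 1 month with levetiracetam, and 2 months after photothrombosis with 2 weeks of withdrawal from levetiracetam. Levetiracetam was given in drinking water at 5 mg/mL. Ages of 8 to 10 and of 65 to 85 weeks are stated for the series but not per library, and neither the number of mice behind a library nor whether both sides came from the same mice is stated. Each group is therefore 1 library, and p-values measure the spread between these libraries.

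MHC class I molecules display peptides cut from a cell's own proteins to cytotoxic T cells. Peptides are made by the proteasome, in which interferon-inducible catalytic subunits can replace the constitutive ones to form the immunoproteasome. They are carried into the endoplasmic reticulum by the TAP transporter and loaded onto a heavy chain paired with beta-2 microglobulin. Class I levels in resting brain are low compared with lymphoid tissue, and interferons raise them in microglia, endothelium and other cells. NLRC5, together with the RFX, CREB and NF-Y factors that bind the SXY module of class I promoters, drives transcription of the route, and an upstream kappa B element and an interferon-stimulated response element (ISRE) add to it.

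All the genes but 2 lie on chromosome 17 in or beside the major histocompatibility complex (GENCODE M21, GRCm38). H2-K1 (ENSMUSG00000061232) is at chr17:33996017-34000347 on the minus strand, H2-D1 (ENSMUSG00000073411) at chr17:35262730-35267499 and H2-Q7 (ENSMUSG00000060550) at chr17:35439155-35443773, both on the plus strand. Psmb9 (ENSMUSG00000096727, chr17:34181987-34187764, minus strand), Tap1 (ENSMUSG00000037321, chr17:34187553-34197225, plus strand), Psmb8 (ENSMUSG00000024338, chr17:34197721-34201454, plus strand) and Tap2 (ENSMUSG00000024339, chr17:34203527-34216321, plus strand) follow one another. B2m (ENSMUSG00000060802) is at chr2:122147686-122153083 and Nlrc5 (ENSMUSG00000074151) at chr8:94434356-94527272, both on the plus strand. Psmb9 and Tap1 overlap at their 5′ ends on opposite strands, and 496 bases separate Tap1 from Psmb8. No neighbour had tag counts within 5% of theirs in every library, so none of the 9 repeats the tags of another gene. The heavy chain genes are close paralogs, and reads that fit more than 1 of them could be split between H2-K1, H2-D1, H2-Q7 and H2-Q6 in a way the sources used here do not state.

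Promoter windows of RefSeq (GRCm38.p6, 250 bases before to 50 after each start) were found for 7 of the 9 genes. The heavy chain and B2m windows are shown because these 4 genes each hold a kappa B match with TGACG downstream of it. Capitals mark matches to the kappa B element, to the ISRE core (TTTC, any 2 bases, TTTC), to the interferon-gamma-activated GAS core (TTCNNNGAA) or to TGACG, the letters of the X2 box, on either strand. The sequences run 5′ to 3′ on the gene's strand, and cover chr17:34000348-34000597 (minus) for H2-K1, chr17:35438905-35439154 (plus) for H2-Q7 and chr2:122147437-122147685 (plus) for B2m. The B2m stretch also lies within a transcript of Patl2 on the opposite strand, outside its untranslated regions. For H2-D1 (chr17:35262913-35262942, plus) and Psmb8 (chr17:34198088-34198117, plus) only 30 bases around a match are given, because GENCODE M21 places these windows in a 5′ exon. The TGACG of H2-D1, 101 bases before its start, therefore lies outside the stretch shown. Psmb8 is added for its GAS match. The windows of Psmb9 and Tap1, not shown, also lie in untranslated regions of GENCODE M21, with 250 and 246 of their 250 upstream bases.
H2-K1: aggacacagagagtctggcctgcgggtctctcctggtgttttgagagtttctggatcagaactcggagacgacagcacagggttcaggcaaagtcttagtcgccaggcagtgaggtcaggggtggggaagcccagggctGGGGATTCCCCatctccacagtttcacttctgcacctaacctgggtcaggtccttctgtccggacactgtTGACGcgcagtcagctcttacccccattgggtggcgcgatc
H2-D1: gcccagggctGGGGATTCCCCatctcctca
H2-Q7: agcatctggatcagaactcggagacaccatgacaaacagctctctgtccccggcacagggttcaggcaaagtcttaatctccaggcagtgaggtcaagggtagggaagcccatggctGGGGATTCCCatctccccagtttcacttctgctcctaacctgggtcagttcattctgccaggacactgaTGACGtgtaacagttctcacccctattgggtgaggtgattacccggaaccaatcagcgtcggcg
B2m: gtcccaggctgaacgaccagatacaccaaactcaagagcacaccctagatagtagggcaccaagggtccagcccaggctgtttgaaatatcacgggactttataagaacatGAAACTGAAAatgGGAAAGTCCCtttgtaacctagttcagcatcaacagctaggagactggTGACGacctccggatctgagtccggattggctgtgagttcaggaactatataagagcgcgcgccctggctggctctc
Psmb8: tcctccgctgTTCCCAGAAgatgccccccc
The kappa B letters GGGGATTCCC were present in all 3 heavy chain genes, 111 bases before the start in H2-K1, 171 in H2-D1 and 133 in H2-Q7. B2m held GGAAAGTCCC at 126 bases before its start, a kappa B match on the opposite strand. H2-K1 has 2 overlapping windows, so 8 windows were searched, and 5 of the 8 held a kappa B match against 8.46% of 32851 windows of all genes. TGACG was found in 7 of the 8, the exception being Psmb8, against 20.8% of all windows, and CCAAT in 7 of the 8 against 37.4%. TATAA was found in 5 of the 8 against 24.9%. The ISRE core as spelled was in 1 of the 8 (B2m, beside its kappa B match) against 3.44%, and the GAS core in 1 of the 8 (Psmb8) against 8.30%. Looser spellings of the ISRE were not searched, so the other windows are not shown to lack one. Psmb9 and Tap1 share a GC box (GGGCGG), because their windows overlap on opposite strands, which makes 2 of the 8 against 35.7% of all windows. The same sharing holds for Psmb9 and Tap1 in both motifs that were found in 7 of the 8 windows. The 2 windows of H2-K1 likewise repeat the same matches, and the heavy chain genes are close paralogs. Counts that include these overlapping windows are therefore higher than the number of separate sites. They were not tested against the shares of all windows. A match is a description of letters and not a measured site.

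**Figure D1:**
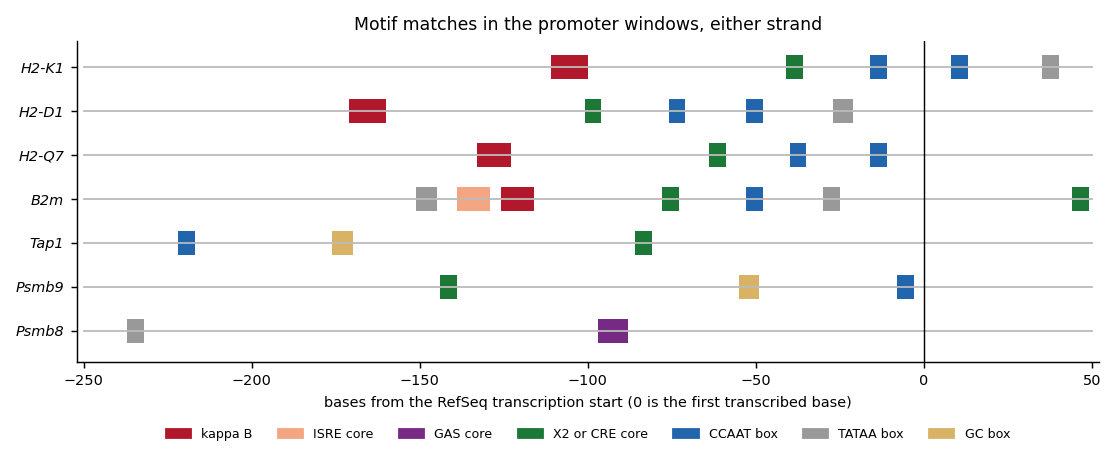
Position of motif matches on either strand in the promoter windows of 7 genes (rows; 1 window each), in bases from the RefSeq transcription start on the x axis. Coloured boxes are matches, and the kappa B boxes of H2-K1, H2-D1, H2-Q7 and B2m lie between 171 and 101 bases before the start.

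The values below are CPM in the order untreated 7 days, levetiracetam 7 days, untreated 1 month, levetiracetam 1 month and withdrawal at 2 months. H2-K1, a classical heavy chain, was at 46.0 in naive cortex, at 144, 150.2, 154, 88.6 and 86.7 on the infarcted side and at 39.4, 40.7, 51.3, 53.6 and 41.5 on the non-infarcted side. H2-D1, the second classical heavy chain, was at 71.5 in naive cortex, at 290.2, 269, 211, 139 and 138 on the infarcted side and at 80.8, 84.1, 69.5, 84.3 and 74.3 on the other. For both genes the lowest infarcted library lay above the highest non-infarcted one, and the non-infarcted libraries lay around the naive level. H2-Q7, a non-classical heavy chain of the Qa family, was 1.93 in naive cortex. It was at 6.39, 6.26, 8.40, 4.84 and 4.62 on the infarcted side and at 2.06, 1.86, 2.25, 2.76 and 2.37 on the other, again with no overlap. All 3 heavy chains were lowest on the infarcted side in the levetiracetam 1 month and withdrawal libraries.

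B2m, the light chain shared by all class I molecules, was at 47.3 in naive cortex, at 265, 268, 97.0, 117 and 80.5 on the infarcted side and at 81.2, 62.8, 37.8, 70.4 and 29.2 on the non-infarcted side. Both 7-day infarcted libraries stood far above the rest, and the groups overlapped narrowly, since the withdrawal infarcted library was below the highest non-infarcted one. Tap1, one of the 2 subunits of the peptide transporter, was at 1.86 in naive cortex, at 3.32, 4.98, 3.59, 3.07 and 3.19 on the infarcted side and at 1.56, 1.70, 1.82, 1.86 and 1.82 on the other, with no overlap. Tap2, the other subunit, was at 4.64 in naive cortex, at 10.1, 9.45, 8.47, 7.03 and 10.1 on the infarcted side and at 6.67, 5.10, 6.97, 7.71 and 9.23 on the other. The sides overlapped for Tap2, and with levetiracetam at 1 month the infarcted value was the lower one.

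Psmb8, which takes the place of the catalytic subunit Psmb5 in the immunoproteasome, was at 8.74 in naive cortex. It was at 55.6, 52.7, 30.2, 24.5 and 20.0 on the infarcted side and at 13.2, 12.97, 10.2, 15.1 and 14.2 on the other, without overlap. Psmb9, which replaces Psmb6, was at 3.40 in naive cortex, at 14.9, 13.4, 8.69, 4.95 and 6.33 on the infarcted side and at 5.00, 2.45, 2.98, 2.95 and 5.10 on the other. Its lowest infarcted value, with levetiracetam at 1 month, was just under the highest non-infarcted value, so its groups overlapped. Nlrc5 was near the limit of detection, with 1 tag in naive cortex, 9, 24, 4, 6 and 10 tags on the infarcted side and 4, 2, 1, 1 and 3 tags on the other. Summed over the 5 states these are 53 against 11 tags, and the highest value, 1.39 CPM, was in the levetiracetam 7 days infarcted library.

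**Figure D2:**
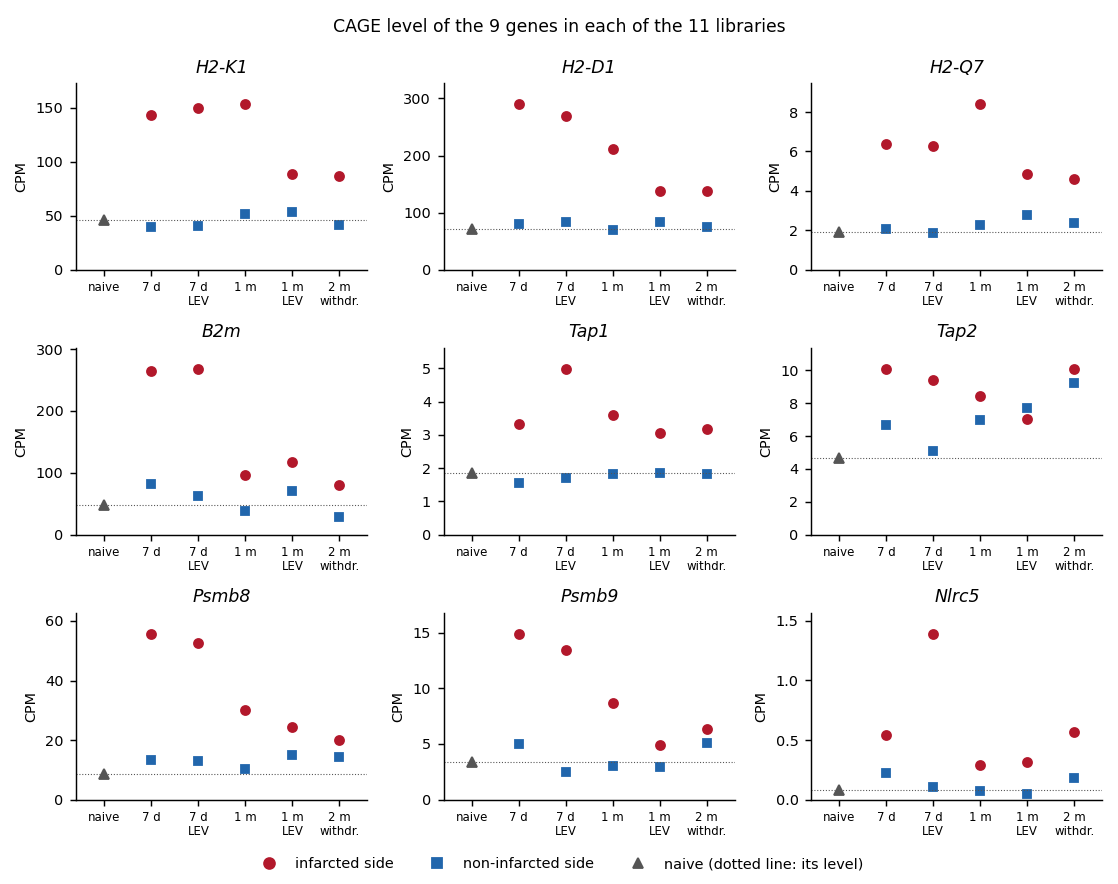
CPM of each of the 9 genes (panels, linear axes from 0) in naive cortex (triangle and dotted line) and in the 5 states on the infarcted (circles) and non-infarcted (squares) side, 1 library per point. H2-K1 lies between 86.7 and 154 on the infarcted side and between 39.4 and 53.6 on the other; Tap2 is the gene whose 2 sides run closest.

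The first comparison asks how the infarcted side differed from the opposite side of the same state. Of the 8 genes that reached a mean of 1 CPM, all but Tap2 were higher on the infarcted side in limma's moderated test over the 5 states (Benjamini-Hochberg adjusted p under 0.05 over all 16229 genes tested). The count of 7 of 8 stands beside 6.21% of all tested genes called higher and 7% called in either direction. Because the genes were chosen with earlier results of these data known, this contrast of shares is not a test. Differences are infarcted minus non-infarcted on the log2(CPM + 1) scale, which understates the change of low genes such as Tap1 and H2-Q7. B2m was 1.45 higher (SE 0.16, adjusted p by limma 0.00447) and H2-K1 1.40 higher (SE 0.16, 0.00500). H2-D1 was 1.34 higher (SE 0.16, adjusted p by limma 0.00563), Psmb8 1.31 (SE 0.22, 0.0146), Psmb9 1.12 (SE 0.23, 0.0246), H2-Q7 1.10 (SE 0.15, 0.00861) and Tap1 0.74 (SE 0.12, 0.0146). Tap2 was 0.31 higher (95% interval 0.01 to 0.61, adjusted p by limma 0.197) and was not called. The median of the 8 genes was 1.21, beside 0.01 over all genes tested. Nlrc5 was below the expression limit of this test; without that limit its difference was 0.49 (adjusted p by limma 0.0687).

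Higher values on the infarcted side in all 5 states were seen for 7 of the 8 tested genes, beside 14.8% of all tested genes, and for Nlrc5, while Tap2 had 4 of 5. Non-overlap of the sides held for H2-K1, H2-D1, H2-Q7, Tap1 and Psmb8 among the 8 tested genes, beside 3.23% of all tested genes. The lowest infarcted and the highest non-infarcted library of Nlrc5, which was not tested, had 4 tags each. The call for 7 genes depended on single states: without the untreated 7 days pair 3 genes were called (H2-K1, H2-D1 and B2m), and without the untreated 1 month pair also 3. The genes that lost the call were H2-Q7, Tap1, Psmb8 and Psmb9, with adjusted p by limma from 0.0506 to 0.101 and the same direction. Without the levetiracetam 7 days pair 4 genes were called. Calls over all genes also fell steeply in each of these fits, as the counts in the last section show, so the loss was not particular to these genes.

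The size of the side ratio differed between states. With exact Clopper-Pearson 95% intervals on the tags, which cover counting error only, H2-K1 was 3.65 (3.36 to 3.98) times higher on the infarcted side at untreated 7 days. Its ratio was 2.99 (2.75 to 3.26) at untreated 1 month, and it was 1.65 (1.53 to 1.78) with levetiracetam at 1 month and 2.09 (1.91 to 2.29) at withdrawal. Psmb8 had ratios of 4.22, 4.06, 2.95, 1.62 and 1.41 in the 5 states, the last with an interval of 1.19 to 1.67. Psmb9 went from 2.98 and 5.50 at 7 days to 1.24 (0.926 to 1.67) at withdrawal, where the sides did not differ beyond counting error. B2m had ratios of 3.26, 4.26, 2.56, 1.66 and 2.76, so that at withdrawal it kept a larger ratio than H2-D1 (1.85) or Psmb8. For Tap2 the intervals at 7 days lay above 1 (1.51, 1.19 to 1.92, and 1.85, 1.43 to 2.41), and those of the other 3 states included 1. With levetiracetam at 1 month H2-K1, H2-D1, B2m, Tap1, Psmb8 and Psmb9 lay between 1.62 and 1.68, H2-Q7 was at 1.75 and Tap2 at 0.911.

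**Figure D3:**
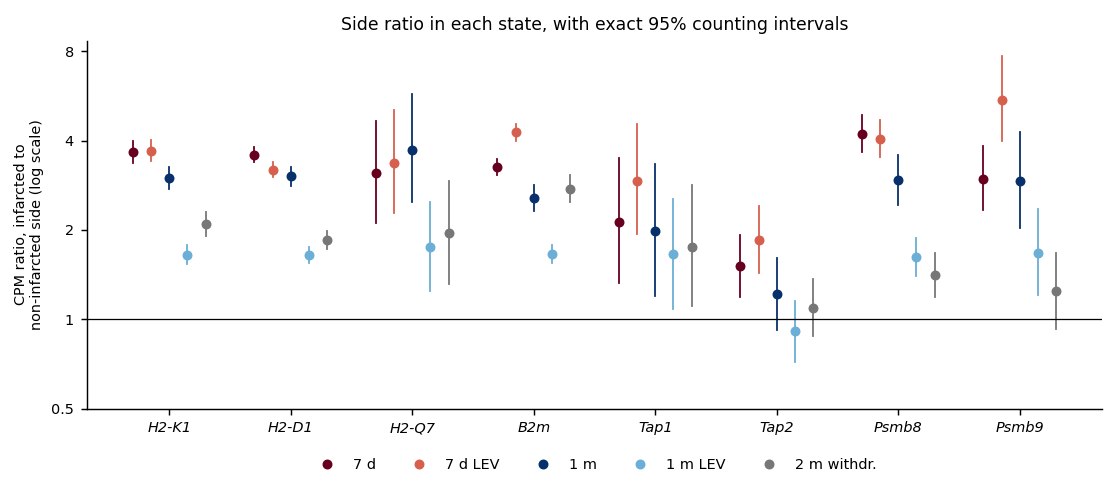
Ratio of CPM on the infarcted to the non-infarcted side (y axis, log scale) for 8 genes in each of the 5 states, with exact 95% intervals for counting error; Nlrc5 is left out for its few tags. H2-K1 runs from 3.69 to 1.65 and Tap2 from 1.85 to 0.911.

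The rest of the class I route was compared in the same test. Of 14 listed heavy chain genes 10 were tested and 7 were higher on the infarcted side, 4 of them outside the 3 described here. These were H2-Q4 (1.16), H2-Q6 (1.08), H2-T23, which encodes Qa-1 (0.62), and H2-M3, which presents formylated peptides (0.58). Among proteins that bind B2m, Hfe, a regulator of iron uptake, was higher (0.78), while Mr1, Cd1d1 and the neonatal Fc receptor gene Fcgrt were not called (0.40, 0.42 and 0.43). Of the 7 tested genes of the peptide loading complex, Tap1 and the chaperone Calr (0.32) were called, and tapasin (Tapbp) was 0.34 higher with an adjusted p by limma of 0.0815. The median over the 10 heavy chain genes was 0.93 and that over the 7 loading genes 0.31.

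In the proteasome the side difference was limited to some subunits. Of 6 tested genes of the immunoproteasome and its PA28 activator, Psmb8, Psmb9 and the PA28 subunit Psme1 (0.37) were higher. The third inducible catalytic subunit, Psmb10, was 0.09 lower on the infarcted side (-0.09, adjusted p by limma 0.449), and Psme2 was at 0.23 without a call. Of 14 constitutive core subunits 0 were called by limma (0 at an unadjusted p under 0.05), with a median of 0.01, and Psmb5 and Psmb6, whose places Psmb8 and Psmb9 take, were at -0.03 and -0.01. Since both transcripts come from the same library, their ratio needs no scaling between libraries. For each Psmb5 tag there were 0.0554 Psmb8 tags in naive cortex and 0.393, 0.388, 0.204, 0.145 and 0.153 on the infarcted side. On the non-infarcted side the ratio was 0.0910, 0.104, 0.0706, 0.0904 and 0.0906, so all 5 infarcted values were the higher ones and all 10 stroke values were above the naive one. Psmb9 per Psmb6 tag was 0.0166 in naive cortex, 0.0654, 0.0649, 0.0417, 0.0330 and 0.0255 on the infarcted side and 0.0230, 0.0128, 0.0141, 0.0199 and 0.0177 on the other. Psmb10 per Psmb7 tag, the third such pair, lay between 0.816 and 1.40 on the infarcted side and between 1.04 and 1.67 on the other, below the naive ratio of 1.54 in all 5 infarcted libraries and in 4 of 5 non-infarcted ones.

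Among the transactivators other than Nlrc5, 0 of 7 tested were called by limma (2 at an unadjusted p under 0.05), with a median of -0.03. Ciita was below the expression limit and not tested. Over the 5 states it had 8, 6, 14, 2 and 14 tags on the infarcted side and 4, 1, 0, 1 and 1 on the other. Of 14 interferon receptor subunits and signalling factors 6 were higher, among them Irf8 (1.56), Ifngr1 (0.76), Irf1 (0.62) and Ifnar2 (0.54). Of 15 tested interferon-stimulated genes 10 were higher, with a median of 0.99, among them Ifitm3 (1.21), Gbp2 (0.98), Ifit3 (0.97) and Gbp3 (0.90). MHC class II genes were higher in 5 of 6, led by H2-Ab1 (2.04) and the invariant chain Cd74 (1.99). Of the receptors that bind class I, Pirb, a paired immunoglobulin-like receptor, was the 1 gene with enough tags and was higher (1.47). Of 6 listed interferon ligand genes 0 were among the 22377 genes, so they could not be compared.

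**Figure D4:**
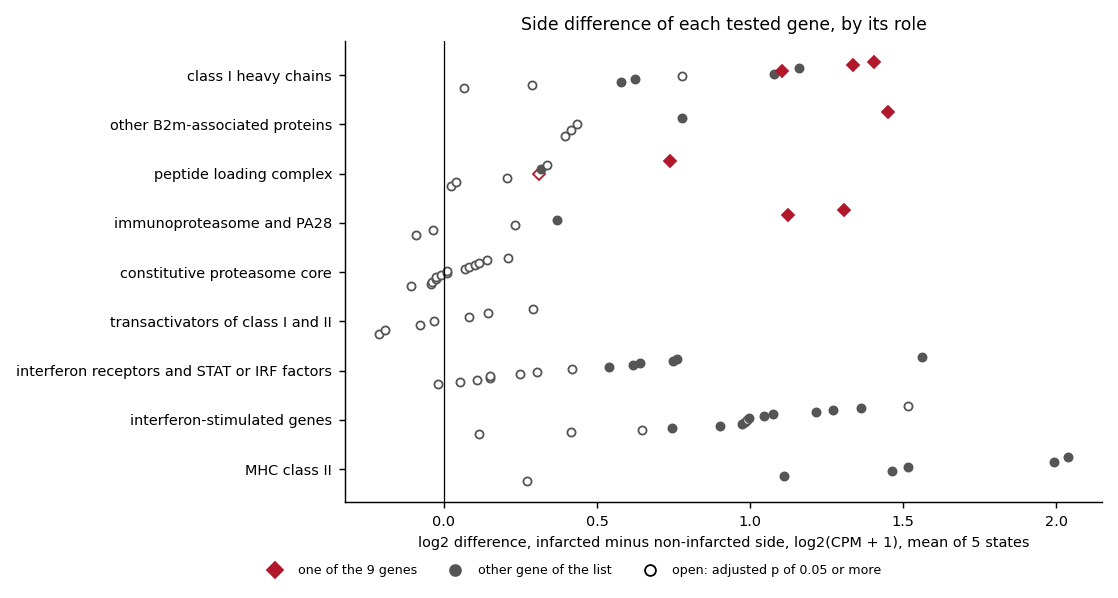
Log2 difference between the sides (x axis, infarcted minus non-infarcted, mean of 5 states) of each tested gene, in rows by role; diamonds are genes described here, filled symbols have an adjusted p under 0.05. Psmb8 and Psmb9 lie at 1.31 and 1.12 while the 14 constitutive core subunits have a median of 0.01.

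Markers of other cells moved with the side as well. The summed CPM of 8 microglia markers was 346 in naive cortex, 567 to 1523 on the infarcted and 335 to 404 on the non-infarcted side, and 7 of the 8 were called higher. For 8 macrophage and monocyte markers the sums were 21.5, 69.6 to 871 and 21.2 to 37.4, and 4 of 7 tested were called. T cell markers summed to 5.49 in naive cortex, 3.32 to 14.1 on the infarcted and 2.86 to 4.36 on the other side. Only Cd4 and Lck were tested, with 0 of 2 called by limma (0 at an unadjusted p under 0.05). The untested Cd3g, Cd3d, Cd3e and Cd8b1 were at 3.30, 2.80, 1.29 and 1.22 CPM in the untreated 1 month infarcted library. Opposite it they were at 0, 0.363, 0 and 0.0726. With levetiracetam at 1 month Cd3g was the lower on the infarcted side (0.0521 against 0.190). NK cell markers were at 0.521 to 2.37 and 0 to 0.363 with Prf1 and Eomes at 0 in at least 6 libraries. B cell markers were at 3.59 to 8.83 and 3.62 to 5.06, with 0 of 1 tested called by limma (0 at an unadjusted p under 0.05). Fibroblast markers were at 77.3 to 1307 against 57.2 to 138 (5 of 6 called), astrocyte markers at 810 to 1237 against 416 to 682 (4 of 6), and endothelial markers at 161 to 210 against 129 to 182 (0 of 6 called, 5 at an unadjusted limma p under 0.05). Oligodendrocyte markers were at 2964 to 4232 against 2236 to 3562 (5 of 6 called), and neutrophil markers at 13.8 to 69.4 against 7.95 to 134, highest in the untreated 7 days non-infarcted library (1 of 4 called). The 8 cortical neuron markers were at 4420 to 5830 against 5058 to 6973, with 0 of 8 called by limma (3 at an unadjusted p under 0.05). The part of these markers in the class I differences was not tested, and in whole tissue more cells of a type and more RNA per cell cannot be told apart.

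The second comparison sets each side against naive cortex. The naive library also differed in its 4 blood markers, mainly haemoglobin genes. They summed to 158 CPM there, to 17.8 to 82.1 on the infarcted side and to 15.7 to 107 on the other. The part of this in the comparisons with naive cortex was not tested. On the infarcted side the 8 tested genes, beside 17.9% of all tested genes, and Nlrc5 were above the naive library in all 5 states. The mean log2 difference was 1.83 for Psmb8, 1.60 for B2m, 1.47 for H2-D1, 1.37 for H2-K1, 1.25 for H2-Q7, 1.17 for Psmb9, 0.82 for Tap2 and 0.68 for Tap1. With a single naive library 0 of these 8 were called by limma (adjusted p 1.00 for each) or by edgeR, although all 8 had an unadjusted p under 0.05; 0.00611% of all genes were called. Tap2 differed here from its side comparison, since it was also above the naive level in all 5 non-infarcted libraries.

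Tap2 and Psmb8 were above the naive library in all 5 non-infarcted libraries, beside 8.29% of tested genes. Their mean log2 differences were 0.51 (95% interval -0.09 to 1.11) and 0.53 (0.02 to 1.04), neither called. The other 6 tested genes lay between -0.06 (Tap1) and 0.15 (B2m), and 0 of 8 were called by limma or by edgeR, where 1, Psmb8, had an unadjusted p under 0.05 by limma and 0% of all genes were called. B2m ranged around the naive level on this side, from 1.72 (1.56 to 1.89) times naive at untreated 7 days to 0.618 (0.547 to 0.697) at withdrawal. Both comparisons use the same naive library.

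The third comparison follows the genes from 7 days to 1 month, over the 4 libraries of a side with and without levetiracetam. With 1 residual degree of freedom these tests made too many false calls on simulated data, so their adjusted p-values are too small. On the infarcted side B2m, Psmb9, Psmb8 and H2-D1 fell, 4 of 8 tested genes, beside 11.4% of all genes called lower and 16.7% called in either direction. B2m fell by 1.31 (SE 0.14, adjusted p by limma 2.19e-10), Psmb9 by 1.00 (SE 0.20, 0.000166), Psmb8 by 0.97 (SE 0.15, 2.54e-06) and H2-D1 by 0.70 (SE 0.14, 0.000222). H2-K1 (-0.33, adjusted p by limma 0.131), Tap2 (-0.30), Tap1 (-0.23) and H2-Q7 (0.02) were not called. Nlrc5, tested without the expression limit, was at -0.56 (adjusted p by limma 0.0393), where its counts went from 9 and 24 tags to 4 and 6.

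Single-library ratios give the course of the heavy chains in each arm. Without drug H2-K1 at 1 month was 1.07 (1.01 to 1.13) times its 7-day level on the infarcted side and H2-Q7 1.32 times. With levetiracetam the same ratios were 0.590 (0.555 to 0.627) and 0.774 (0.580 to 1.03). B2m was at 0.366 (0.345 to 0.390) without and 0.437 (0.415 to 0.459) with drug, and Psmb8 at 0.542 and 0.465, so both were lower at 1 month in each arm. Whether the course differed between arms could not be tested, because 4 libraries leave no degree of freedom for that term.

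For the opposite side 0 of the 8 genes were called by limma or by edgeR, with 2 at an unadjusted limma p under 0.05, beside 12.4% of all genes called. These 2 were H2-K1 (0.38, 95% interval 0.08 to 0.68, adjusted p by limma 0.0861) and B2m (-0.46, -0.91 to -0.01, 0.173). The arms differed in direction for B2m, whose single-library ratio here was 0.466 (0.421 to 0.515) without drug and 1.12 (1.04 to 1.21) with it. Psmb8 was at 0.777 (0.626 to 0.961) without and 1.16 (0.982 to 1.38) with drug. The test of the difference between the sides called 4 of 8, all with a more negative change on the infarcted side, beside 5.23% of all genes called lower and 5.47% in either direction. The change of the side difference was -0.90 for Psmb8 (SE 0.19, adjusted p by limma 0.000450), -0.85 for B2m (SE 0.15, 1.96e-05), -0.71 for H2-K1 (SE 0.15, 0.000556) and -0.60 for H2-D1 (SE 0.14, 0.00199). Each is a mean over the untreated and the levetiracetam arm, and the narrowing was larger in the levetiracetam arm. Psmb9 was at -0.80 (adjusted p by limma 0.0591), Tap2 at -0.59 (0.171), Tap1 at -0.34 and H2-Q7 at -0.22. These 4 calls depended on the scaling and the model: 0 held when each library was centred on its median gene, 1 (Psmb8, 0.0434) by edgeR and 1 (B2m) without levetiracetam in the model, with all directions kept.

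**Figure D5:**
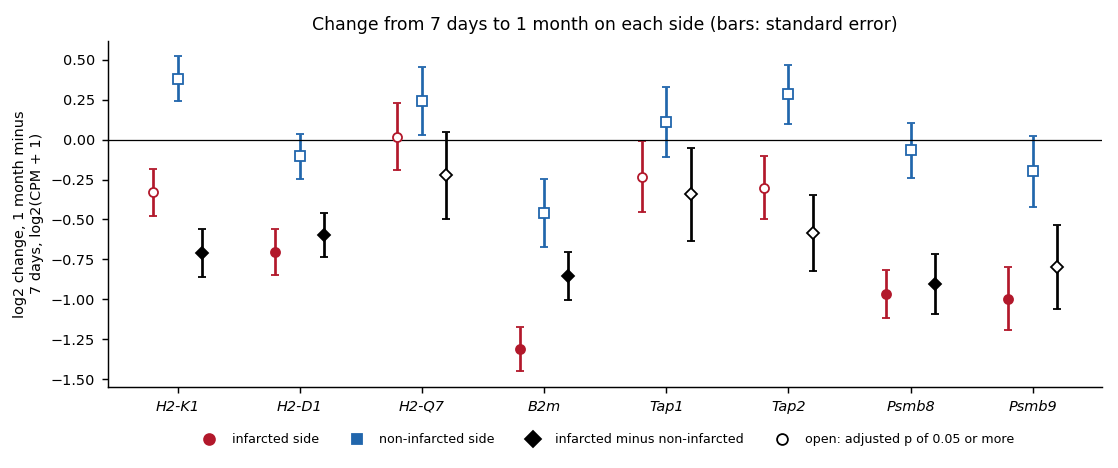
Log2 change from 7 days to 1 month (y axis, points with standard errors) of 8 genes on the infarcted side, on the non-infarcted side, and the difference between the 2; filled symbols have an adjusted p by limma under 0.05. B2m fell by 1.31 on the infarcted side, and H2-Q7 lies near 0 there at 0.02.

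The lists were read over the same interval on the infarcted side against the 11.4% of all genes called lower and 16.7% called in either direction. Of 9 tested heavy chain genes 4 fell, among them H2-M3 (-0.78) and H2-T23 (-0.62), and 13 of 15 interferon-stimulated genes fell, with a median of -1.06. Of the constitutive core subunits 3 fell and 1 rose of 14. Psmb4 fell on both sides, by 0.69 on the infarcted and 0.60 on the other, and Calr by 0.96 and 0.85. Microglia markers fell in 7 of 8 and macrophage markers in 6 of 7, while of the 6 MHC class II genes 1 rose and 1, H2-DMb1 (-1.37), fell. The summed class II level was highest in the untreated 1 month infarcted library, at 239 CPM, as was that of the T cell markers, at 14.1, where H2-K1 and H2-Q7 also had their highest values. The part of these markers in the class I values was not tested.

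The balance of light to heavy chain was read within each library. For each H2-K1 tag there were 1.03 (0.916 to 1.15) B2m tags in naive cortex, and 1.84, 1.78, 0.632, 1.32 and 0.928 on the infarcted side. On the non-infarcted side the ratio was 2.06, 1.54, 0.737, 1.31 and 0.704. Each state thus lay on the same side of the naive ratio in infarcted and non-infarcted cortex, with all 4 libraries of 7 days and both levetiracetam 1 month libraries above the naive ratio and both untreated 1 month libraries below it. At withdrawal both were below it too, but on the infarcted side (0.863 to 0.999) within the counting error of the naive value. Tap1 per Tap2 tag was 0.400 in naive cortex, 0.329, 0.528, 0.424, 0.437 and 0.316 on the infarcted side and 0.233, 0.333, 0.260, 0.241 and 0.197 on the other. The infarcted value was the higher one in every state. The intervals of the 2 sides overlapped in all 5, for example 0.238 to 0.449 against 0.149 to 0.354 at untreated 7 days. At withdrawal they were 0.230 to 0.430 against 0.129 to 0.293. Overlap of intervals is not a test, and the difference between the sides in this ratio was not tested.

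The fourth comparison concerns levetiracetam, over the same 4 libraries of a side. On the infarcted side 0 of 8 genes were called by limma or edgeR (3 at an unadjusted limma p under 0.05), beside 0.518% of all genes. H2-K1 was at -0.36 (95% interval -0.66 to -0.06, adjusted p by limma 0.437), H2-D1 at -0.36 (-0.64 to -0.07, 0.415), Psmb9 at -0.42 (-0.82 to -0.02, 0.559) and B2m at 0.14 (-0.14 to 0.42, 0.881). On the non-infarcted side 0 of 8 were called by either tool, with 0 at an unadjusted limma p under 0.05, beside 0.00628% of all genes. For the difference between the sides 0 of 8 were called by either tool (3 at an unadjusted limma p under 0.05), beside 0.173% of all genes. H2-D1 came closest, at -0.52 with an adjusted p by limma of 0.157, and was called (0.0382) when only genes with a mean of at least 5 CPM were tested.

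Single-library ratios on the infarcted side are given for each time, and whether they differed between times was not tested. At 7 days the ratio of the levetiracetam to the untreated library was 1.04 for H2-K1 (0.987 to 1.10), 1.01 for B2m (0.970 to 1.05) and 0.947 for Psmb8 (0.863 to 1.04). Tap1 (1.50, 1.06 to 2.15) and Nlrc5 (2.56, 1.15 to 6.27) were above 1 there and H2-D1 (0.926, 0.889 to 0.964) below. At 1 month the ratio was 0.577 (0.541 to 0.615) for H2-K1, 0.658 (0.624 to 0.693) for H2-D1, 0.576 (0.434 to 0.763) for H2-Q7 and 0.569 (0.430 to 0.751) for Psmb9. Psmb8 was at 0.811 (0.710 to 0.928), Tap1 and Tap2 did not differ beyond counting error (0.855, 0.577 to 1.27, and 0.829, 0.643 to 1.07), and B2m was at 1.205 (1.13 to 1.29). On the non-infarcted side at 1 month B2m was at 1.86 (1.68 to 2.06), Psmb8 at 1.47 (1.21 to 1.81) and H2-D1 at 1.21 (1.12 to 1.31), while H2-K1, at 1.04, did not differ beyond counting error. At 7 days Psmb9 (0.489, 0.335 to 0.705) and B2m (0.773, 0.715 to 0.835) were below 1 there, and the intervals of the other genes included 1. In the 1 month pair of infarcted libraries the macrophage marker sum was 69.6 with drug and 429 without. In the same order fibroblast markers were at 77.3 and 283, T cell markers at 4.01 and 14.1, MHC class II genes at 64.5 and 239, and microglia markers at 568 and 567. The part of those markers in the class I ratios was not tested, and the drug and the mice of a library cannot be told apart.

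Withdrawal was read from 1 library a side, set against the levetiracetam 1 month library, with time and withdrawal confounded and no test. On the infarcted side H2-K1 (0.978, 0.912 to 1.05) and H2-D1 (0.994, 0.940 to 1.05) did not differ beyond counting error when scaled to library totals. B2m was at 0.689 (0.644 to 0.736) and Psmb8 at 0.818 (0.710 to 0.941), and Tap2 was at 1.44 (1.14 to 1.81). The median gene of the withdrawal library was 0.15 higher on the log2 scale than that of the 1 month library. With TMM or median scaling 4 genes rather than 2 had an interval below 1, because H2-K1 and H2-D1 joined B2m and Psmb8. H2-K1 was then at 0.907 (TMM) and 0.885 (median) and H2-D1 at 0.922 and 0.898, so their lack of difference depended on the scaling. On the non-infarcted side B2m was at 0.415 (0.373 to 0.460), H2-K1 at 0.773 (0.702 to 0.851), H2-D1 at 0.881 (0.818 to 0.948) and Psmb9 at 1.73 (1.23 to 2.44).

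Across the 11 libraries the 9 genes were correlated with one another to differing degrees. Pearson r on log2(CPM + 1) ran from 0.444 for Tap2 with B2m to 0.979 for H2-Q7 with H2-K1, and Psmb8 followed H2-D1 (0.976) more closely than it did Psmb9 (0.920). Of 12782 other genes with a mean of at least 5 CPM, the 8 whose profile was most like the mean profile of the 9 were Itgb2 (0.994), Gpnmb (0.992), Apobec1 (0.992), Clec7a (0.989), Cd68 (0.988), Lyz2 (0.988), Dcn (0.986) and Apobec3 (0.985). Itgb2 encodes the beta chain of leukocyte integrins, and Cd68 and Lyz2 encode proteins of phagocyte lysosomes. Itgb2 was at 2.17 CPM in naive cortex, at 24.7 and 29.9 in the 7-day infarcted libraries and at 8.38 with levetiracetam at 1 month. These correlations are descriptions over 11 libraries that share 1 contrast of sides, so genes with any side difference score high.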

How the data were processed

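RNA of whole cortex was cap-trapped after random-primed cDNA synthesis, per the labels' protocols, and the authors deposited 1 table of tag counts scaled to library totals (CPM) for the 11 libraries. BWA 0.7.17, HISAT2 2.0.5, DESeq2 1.20.0 and build GRCm38 are named in the submitters' processing notes, with no roles. How multi-mapping reads were counted is not given in the sources used here. Every value was a whole number of tags within 0.01 tag (100% of values), which gave totals of 12928291 to 21000367 tags per library, with 92.3 to 97.3% in listed genes. A count of 0 allows up to 3 tags, or 0.143 to 0.232 CPM. The series' design text has levetiracetam begin at 1 month with 1 week of withdrawal, and the labels give it at 7 days with 2 weeks of withdrawal; the labels were followed.

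Tests used limma 3.58.1 (moderated, with trend) on log2(CPM + 1) for genes with a mean of at least 1 CPM, with Benjamini-Hochberg adjustment over all genes tested and a threshold of 0.05. The side test modelled the 5 states, which left 4 residual degrees of freedom. The tests of time and of levetiracetam had 1 residual degree of freedom, with spread borrowed across genes. Tested on simulated data, all of these limma tests made more false calls than the threshold allows, those of time and levetiracetam the most. edgeR 4.0.16 quasi-likelihood tests on recovered tags called 1179 genes between sides, 2485 and 1380 for time on the infarcted and the non-infarcted side, 13 and 3 for levetiracetam, and 1 and 0 against naive. Alternatives were a prior count of 0.25 CPM, no or a 5 CPM expression limit, TMM or median scaling, edgeR, models without a factor, and leaving out a state. Named genes are the 9, up to 4 other genes per list with the smallest side p, a fixed set of relatives, and the 8 most alike in profile. The genes and lists were chosen with earlier results of these data known.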

Additional observations from a re-analysis of the deposited data

Results flagged for a closer look

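For 4 genes the difference between the sides changed from 7 days to 1 month by limma's test of that change. The changes on the log2(CPM + 1) scale were -0.90 for Psmb8, -0.85 for B2m, -0.71 for H2-K1 and -0.60 for H2-D1. In each case the ratio of the infarcted to the other side was smaller at 1 month in both the untreated and the levetiracetam pair. The narrowing was larger with levetiracetam for all 4. The log2 side difference of H2-K1 went from 1.84 to 1.56 untreated and from 1.86 to 0.71 with levetiracetam. In the same order B2m went from 1.69 to 1.34 and from 2.07 to 0.72. Psmb8 went from 2.00 to 1.47 and from 1.94 to 0.66, and H2-D1 from 1.83 to 1.59 and from 1.66 to 0.71. Whether the arms differed could not be tested. For H2-K1 the untreated infarcted value itself was no lower at 1 month (154 against 144 CPM). The test had 1 residual degree of freedom.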

How the results depend on the processing

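All 7 side calls held with a prior count of 0.25 CPM, no expression limit, median or TMM scaling and edgeR; a limit of 5 CPM leaves 5 called because Tap1 and H2-Q7 are then not tested, and without state in the model 5 were called, with Psmb9 (0.0599) and B2m (0.0712) lost. Leaving out 1 state gave 3 to 7 calls, with 4 without the levetiracetam 7 days pair. The 4 calls for the change of the side difference became 0 with median scaling, 1 by edgeR and 1 without levetiracetam in the model; the cause was not tested. For levetiracetam between sides 0 became 1 (H2-D1) with the limit of 5 CPM. For withdrawal on the infarcted side 2 genes with an interval below 1 became 4 with TMM and 4 with median scaling. The 4 falls with time on the infarcted side were called under all alternatives run.

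Signs turned for differences that were never called. Against naive cortex on the non-infarcted side leaving out 1 library gave -0.0963 to 0.0123 for H2-K1 (above 0 without either 7 days library, 0.00128 without the levetiracetam one), -0.0523 to 0.154 for Psmb9 (below 0 without the untreated 7 days, -0.0466, or the withdrawal library) and -0.00544 to 0.356 for B2m (below 0 without the untreated 7 days library). Psmb8 was 0.0194 for time on the non-infarcted side by edgeR, and Psmb9 was 0.0234 (prior count of 0.25 CPM) and 0.115 (edgeR) for levetiracetam between sides. Of 590 values over the 9 comparisons and their alternatives, 558 kept direction and side of the threshold.

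Over all genes the side test called 1136, against 732 with the 5 CPM limit, 245 without state, and 103, 161 and 71 without the untreated 7 days, levetiracetam 7 days and untreated 1 month pairs. The share of side calls that were higher was 88.7%, against 69.1% with median scaling, 74.8% with TMM and 76.2% by edgeR. Time on the infarcted side called 2732, against 1547 without levetiracetam in the model, and its side difference 888, against 271, 273 and 503 with median scaling, by edgeR and without levetiracetam. Levetiracetam on the infarcted side called 85, against 0 to 209. The side model already pairs the 2 libraries of a state. No paired analysis by replicate number was possible because each group has 1 library. Leaving out 1 of the 4 libraries of a time or drug test leaves no residual degree of freedom, so those were not fitted. Depth limits Nlrc5 (1 to 24 tags) and Tap1 (24 to 86 tags).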
